A study of Homo sapiens with 12 samples.

Results

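The 9 genes described here encode the core of the TGF-beta pathway: the ligands TGFB1, TGFB2 and TGFB3, the type I and type II receptors TGFBR1 and TGFBR2, the receptor-activated SMAD2 and SMAD3, their common partner SMAD4, and the inhibitory SMAD7. They were chosen by name out of 60617 Ensembl identifiers, with earlier results of these data known. All 9 were among the 15692 genes that were tested. A TGF-beta ligand is secreted in a latent form and, once released, brings the type II receptor together with the type I receptor, which phosphorylates SMAD2 and SMAD3. These bind SMAD4, enter the nucleus and change transcription, and SMAD7, itself a target gene, blocks the type I receptor. In colon epithelium the pathway restrains growth, and HCT 116 cells, which are deficient in mismatch repair, are known to carry frameshift mutations in TGFBR2. Counts per gene do not read such mutations.

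RNA was sequenced from HCT 116p53-/-, a colon cancer cell line of human origin that lacks p53, and from uL3ΔHCT 116p53-/- cells, a stable sub-line of the same p53-/- genotype that the labels give as an RPL3 knockout and the study's methods as stably silenced for uL3, the protein encoded by RPL3. How many clones the sub-line stands for is not given in the sources used here. Cells of both lines were treated for 24 h with 5 nM Act D, which at low doses mainly blocks rRNA transcription, or with vehicle. Each of the 4 groups had 3 libraries, which the labels call biological replicates.

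Deposited RSEM expected counts summed to between 10087925 and 21138886 per library, and CPM below are counts scaled to the library's total after TMM normalization, which are not corrected for gene length. RPL3 was at 1151, 1121 and 1141 CPM in vehicle-treated HCT 116p53-/- libraries and at 1188, 1337 and 1202 CPM in those labelled uL3Δ. No library of the latter lay below the former at this scaling (log2 fold change 0.13 with SE 0.08, adjusted p = 0.155 by edgeR's quasi-likelihood test, Benjamini-Hochberg adjusted), and the value was -0.11 with library size alone (adjusted p = 0.299). In deposited TPM, which is per length, every vehicle library labelled uL3Δ lay below instead. RPL3 was at 826, 720 and 781 TPM in HCT 116p53-/- libraries and at 641, 545 and 583 TPM in those labelled uL3Δ. The groups are therefore named by their labels. The colon epithelial markers CDH1, CDX2, KRT19 and EPCAM were at 66.8, 14.8, 609 and 153 CPM in HCT 116p53-/- cells with vehicle and at 0.445, 0.177, 36.6 and 35.5 CPM in the libraries labelled uL3Δ. KRT8 was at 1117 and 777 CPM, and KRT18 was instead higher in the latter, at 605 and 840 CPM. With vehicle, 6 of 12 colon epithelial markers reached 1 CPM in HCT 116p53-/- cells and 4 of 12 in the libraries labelled uL3Δ, with summed levels of 2481 to 2682 and 1592 to 1784 CPM. CDH17, CDX1, VIL1, LGALS4 and GPA33, further defining markers, were under 0.5 CPM in both lines. Of 8 fibroblast markers, 1 and 5 reached 1 CPM, with summed levels of 7.78 to 9.66 and 95.5 to 111 CPM, and DCN and THY1 stayed under 0.5 CPM in both. The part of these differences in the results below was not tested.

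The members lie on 6 chromosomes besides the shared chromosome 18, which holds SMAD2 (47808957 to 47931146, minus strand), SMAD7 (48919853 to 48950965, minus strand) and SMAD4 (51028528 to 51085045, plus strand), all positions being of hg38 in GENCODE v44. TGFB1 lies at 41301587 to 41353922 of chromosome 19 on the minus strand, TGFB2 at 218345336 to 218444619 of chromosome 1 on the plus strand, and TGFB3 at 75958097 to 75983011 of chromosome 14 on the minus strand. TGFBR1 lies at 99104038 to 99154192 of chromosome 9, TGFBR2 at 30606601 to 30694142 of chromosome 3 and SMAD3 at 67063763 to 67195173 of chromosome 15, all on the plus strand.

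The 250 bases before the start are shown for the 4 members with the largest line differences with vehicle, all higher in uL3Δ libraries. They were taken from RefSeq (GRCh38.p14), where all 9 members matched, at the start of the canonical transcript, and are written 5′ to 3′ on the gene's strand: TGFB1 chr19:41353923-41354172 (minus), TGFB2 chr1:218345086-218345335 (plus), TGFB3 chr14:75981996-75982245 (minus) and SMAD7 chr18:48950966-48951215 (minus). Capitals mark every match, on either strand, to the AP-1 site TGANTCA, the CRE TGACGTCA, its shorter form TGACGT, the E-box CACGTG, the GC box GGGCGG, the SMAD box CAGAC, the SMAD palindrome GTCTAGAC or the TATA box TATAAA.
TGFB1: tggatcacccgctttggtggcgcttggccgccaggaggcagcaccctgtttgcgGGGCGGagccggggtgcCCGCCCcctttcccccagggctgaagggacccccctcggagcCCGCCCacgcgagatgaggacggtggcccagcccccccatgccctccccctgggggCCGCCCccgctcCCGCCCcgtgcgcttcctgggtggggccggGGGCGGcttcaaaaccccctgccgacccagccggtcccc
TGFB2: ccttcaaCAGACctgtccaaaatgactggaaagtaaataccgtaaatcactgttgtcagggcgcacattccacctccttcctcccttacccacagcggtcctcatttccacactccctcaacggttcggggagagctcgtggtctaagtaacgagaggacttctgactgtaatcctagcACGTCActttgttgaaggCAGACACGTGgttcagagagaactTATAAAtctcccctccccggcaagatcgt
TGFB3: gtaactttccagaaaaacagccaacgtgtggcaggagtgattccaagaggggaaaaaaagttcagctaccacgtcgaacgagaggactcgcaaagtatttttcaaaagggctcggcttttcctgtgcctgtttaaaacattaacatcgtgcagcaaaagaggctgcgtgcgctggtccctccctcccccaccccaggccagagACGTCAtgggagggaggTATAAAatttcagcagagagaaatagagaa
SMAD7: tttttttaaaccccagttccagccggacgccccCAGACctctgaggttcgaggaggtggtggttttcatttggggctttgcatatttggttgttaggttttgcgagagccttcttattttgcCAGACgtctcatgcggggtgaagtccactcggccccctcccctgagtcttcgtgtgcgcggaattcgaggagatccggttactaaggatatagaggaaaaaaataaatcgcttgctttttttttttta
The TGFB1 window was 76.8% G and C, against a median of 58% over 35116 windows of this length, and held 6 GC boxes and none of the other motifs. The TGFB2 and TGFB3 windows, at 50.4% and 49.2%, each held a TATA box and a TGACGT match on the opposite strand, whereas 10.7% of all windows held the first and 7.1% the second. In TGFB2 the TATA box ran from 29 to 24 bases before the start, and in TGFB3 from 30 to 25. TGFB2 also had an E-box (6.34% of all windows) that shares 1 base with a SMAD box (38% of all windows), and SMAD7 held 2 SMAD boxes in a window of 48% G and C. SMAD3 was the only other member with an E-box in its window, and GC boxes (42.6% of all windows) were found for TGFBR2, SMAD2, SMAD3 and SMAD4. A match is a string of letters and not an observed binding site.

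Levels of different genes were compared as TPM, which is per length. In vehicle-treated HCT 116p53-/- cells the SMADs that carry the signal led: SMAD2 was at 32.0 ± 4.16 TPM (SD, n = 3), SMAD4 at 25.3 ± 1.02 and SMAD3 at 12.1 ± 0.27. TGFB1 (8.80 ± 5.91), TGFBR1 (6.00 ± 0.972), TGFBR2 (3.47 ± 0.65) and SMAD7 (3.08 ± 0.66) followed in TPM, and TGFB3 and TGFB2 were lowest, at 0.23 ± 0.0721 and 0.0967 ± 0.0723 TPM. The neighbours SMAD3 and TGFB1, TGFB1 and TGFBR1, TGFBR2 and SMAD7, and TGFB3 and TGFB2 overlapped between libraries.
In the libraries labelled uL3Δ with vehicle the order was TGFB1 (30.3 ± 15 TPM), SMAD3 (17.8 ± 6.03), SMAD2 (16.1 ± 2.86), SMAD4 (14.1 ± 3.62), SMAD7 (9.05 ± 1.42), TGFBR2 (8.24 ± 2.45), TGFBR1 (2.66 ± 0.562), TGFB2 (1.99 ± 0.857) and TGFB3 (0.833 ± 0.215). Each of these overlapped with the next except TGFBR2 with TGFBR1 and TGFB2 with TGFB3. TPM also moves with the transcript length that RSEM assigned, which for TGFB1 was between 1118 and 2355 bases across the libraries deposited per gene and for TGFB2 between 881 and 5709. For SMAD2 it was between 1989 and 2929 bases and for SMAD4 between 2168 and 3511. The order of levels thus depends on the forms to which reads were assigned, which are given below for a single library. Differences between groups were therefore tested on counts.

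The first comparison asks how the lines differed without treatment. Of the 9 members, 8 passed an adjusted p of 0.05 by edgeR's quasi-likelihood test, 6 upwards and 2 downwards in the libraries labelled uL3Δ, and for all 9 members the libraries of one line lay apart from those of the other. Among all genes tested, 71.3% passed the same threshold (35.1% higher and 36.2% lower) and 72.5% did not overlap, so that these counts are to be read against a difference at most genes. The median log2 fold change was 1.73 over the members and -0.02 over all genes.

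All 3 ligands were higher. TGFB2 was at 0.389, 0.413 and 0.423 CPM in HCT 116p53-/- libraries, which are 5.92, 6.32 and 7.19 expected counts, and at 14.9, 14.5 and 14.6 CPM in the libraries labelled uL3Δ. It was near its detection limit in every library of the first group and far above it in every library of the second. The log2 fold change was 5.13 (with SE 0.24 and adjusted p = 1.8e-12 by edgeR's quasi-likelihood test), the largest among the members. In the libraries deposited per gene, RSEM's own uncertainty of the count reached 19.8% of it in 1 library for TGFB2 and stayed at or under 0.572% for the other members.
TGFB1, the most abundant ligand, was at 13.0, 14.3 and 23.2 CPM in HCT 116p53-/- libraries and at 113, 88.3 and 100.1 CPM in those labelled uL3Δ. The third HCT 116p53-/- library stood apart from its replicates but remained far below the other line. The log2 fold change was 2.57 (with SE 0.16 and adjusted p = 8.6e-11 by edgeR's quasi-likelihood test), a 5.93-fold difference.
TGFB3 was at 0.454, 0.758 and 0.423 CPM in HCT 116p53-/- libraries and at 2.73, 3.30 and 2.63 CPM in those labelled uL3Δ. It was low in both lines, with between 7 and 66 counts per library, but the groups lay apart. Its log2 fold change was 2.41 (with SE 0.30 and adjusted p = 1.2e-06, same test).

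The receptors moved in opposite directions. TGFBR2, the type II receptor that binds ligand, was at 21.1, 17.3 and 23.2 CPM in HCT 116p53-/- libraries and at 80.6, 59.5 and 65.0 CPM in those labelled uL3Δ. Every library of the second line lay above every library of the first, by 3.32-fold (log2 fold change 1.73 with SE 0.12, adjusted p = 7.8e-10 by edgeR's quasi-likelihood test). TGFBR1, the type I kinase, was at 43.3, 40.4 and 45.4 CPM and at 34.5, 29.8 and 29.1 CPM, respectively. It fell by 0.47 on the log2 scale (with SE 0.10 and adjusted p = 0.00025, same test).
A ratio of counts within a library is free of scaling between libraries. TGFBR2 over TGFBR1 was 0.488, 0.428 and 0.510 in HCT 116p53-/- libraries and 2.34, 1.99 and 2.23 in those labelled uL3Δ with vehicle, so that the more abundant of the receptor transcripts, in counts, was TGFBR1 in the first line and TGFBR2 in the second. The ratio was 4.61-fold higher in the latter (p = 0.1, exact permutation test, two-sided, the smallest that 3 against 3 allows). The ratios were chosen after the members' values were seen.

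The SMADs split as well. SMAD3 was at 63.8, 66.1 and 75.4 CPM in HCT 116p53-/- libraries and at 136, 105 and 120 CPM in those labelled uL3Δ, with no overlap. It was higher by 0.81 on the log2 scale (with SE 0.11 and adjusted p = 2.0e-06 by edgeR's quasi-likelihood test). SMAD2, the other receptor-activated SMAD, was at 125, 113 and 112 CPM and at 64.1, 67.2 and 71.3 CPM, respectively. All libraries labelled uL3Δ lay below, and SMAD2 fell by 0.79 on the log2 scale (with SE 0.08 and adjusted p = 1.1e-07, same test). The SMAD3 over SMAD2 count ratio was 0.510, 0.587 and 0.674 in HCT 116p53-/- libraries and 2.11, 1.56 and 1.68 in those labelled uL3Δ, a 3.01-fold difference (p = 0.1, exact permutation test, two-sided, the smallest possible).
SMAD4, the common partner, was at 76.7, 76.6 and 74.6 CPM and at 67.2, 71.5 and 70.4 CPM. The groups did not overlap, yet the log2 fold change of -0.12 (95% interval -0.28 to 0.03, adjusted p = 0.177 by edgeR's quasi-likelihood test) did not pass. Scaling by library size alone, which shifts the median of all genes in this comparison to -0.26, gave -0.36 for SMAD4 with an adjusted p of 0.00055 from the same test, whereas the GC and length correction turned its sign (0.07, adjusted p = 0.39).
SMAD7, which inhibits the receptor and is induced by the pathway itself, was at 9.20, 9.64 and 7.49 CPM in HCT 116p53-/- libraries and at 41.2, 49.9 and 53.5 CPM in those labelled uL3Δ. It was thus higher in every library of the second line, by 5.51-fold (log2 fold change 2.46 with SE 0.13, adjusted p = 1.1e-11 by edgeR's quasi-likelihood test). SMAD2 and SMAD7, both on chromosome 18, therefore differed in opposite directions, and SMAD4 on the same chromosome did not pass the test.

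**Figure D1:**
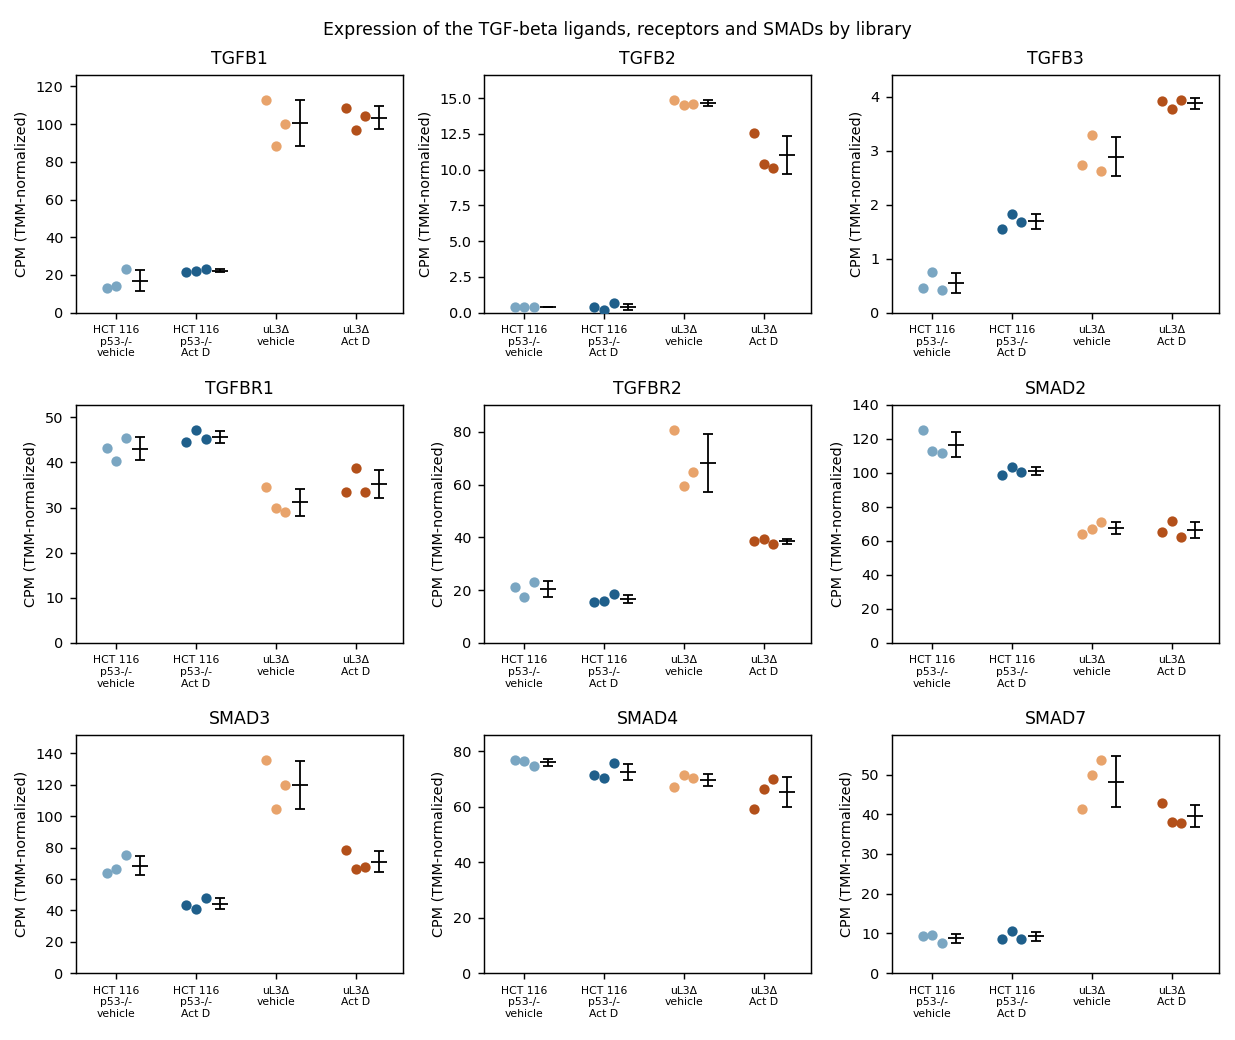
Each panel plots the TMM-normalized CPM of a member (linear axis from 0) in each of the 12 libraries, as points by group, with the mean and SD of the 3 libraries as a bar beside them. The uL3Δ points of TGFB1, TGFB2, TGFB3, TGFBR2, SMAD7 and, at matched treatment, SMAD3 sit above those of HCT 116p53-/-, those of SMAD2 and TGFBR1 sit below, and those of SMAD4 lie between 59.2 and 71.5 CPM against 70.3 to 76.7.

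With Act D in both lines TGFB1, TGFB2, TGFB3, TGFBR2, SMAD3 and SMAD7 were higher and SMAD2 and TGFBR1 lower in the libraries labelled uL3Δ (edgeR's quasi-likelihood test), against 70.4% of all genes called (35.1% higher and 35.3% lower), and all 9 members again did not overlap (74.1% of all genes). TGFB2 was at 0.374, 0.203 and 0.643 CPM in Act D-treated HCT 116p53-/- libraries and at 12.6, 10.4 and 10.1 CPM in those labelled uL3Δ. The groups did not overlap, with a log2 fold change of 4.78 (with SE 0.25 and adjusted p = 1.3e-11, same test). TGFB1 was at 21.5, 22.3 and 22.9 CPM and at 109, 96.8 and 104 CPM, respectively.
The TGFB1 difference was 4.65-fold (log2 fold change 2.22 with SE 0.16, adjusted p = 6.4e-10 by edgeR's quasi-likelihood test). TGFB3 was at 1.56, 1.83 and 1.69 CPM and at 3.93, 3.77 and 3.94 CPM, still without overlap, and differed by 1.2 on the log2 scale (with SE 0.26 and adjusted p = 0.00057, same test). SMAD7 was at 8.66, 10.5 and 8.61 CPM in the first line and at 42.8, 38.0 and 37.8 CPM in the second, a log2 fold change of 2.10 (with SE 0.13 and adjusted p = 1.6e-10, same test).
TGFBR2 was higher in the libraries labelled uL3Δ by 1.22 and SMAD3 by 0.69 on the log2 scale, and SMAD2 and TGFBR1 were lower, at -0.60 and -0.37 (adjusted p between 1.7e-07 and 0.0022 by edgeR's quasi-likelihood test for these 4). SMAD4 was at -0.16 with an adjusted p of 0.099 from the same test, which became -0.25 and 0.0262 without the third Act D library labelled uL3Δ. Scaling by library size alone gave -0.40 and 0.00025 for SMAD4, with the median of all genes at -0.26. With Act D the TGFBR2 over TGFBR1 ratio was 0.363 ± 0.0376 (SD, n = 3) in HCT 116p53-/- cells and 1.10 ± 0.0756 in the libraries labelled uL3Δ, and the SMAD3 over SMAD2 ratio was 0.437 ± 0.0405 and 1.07 ± 0.140.

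**Figure D2:**
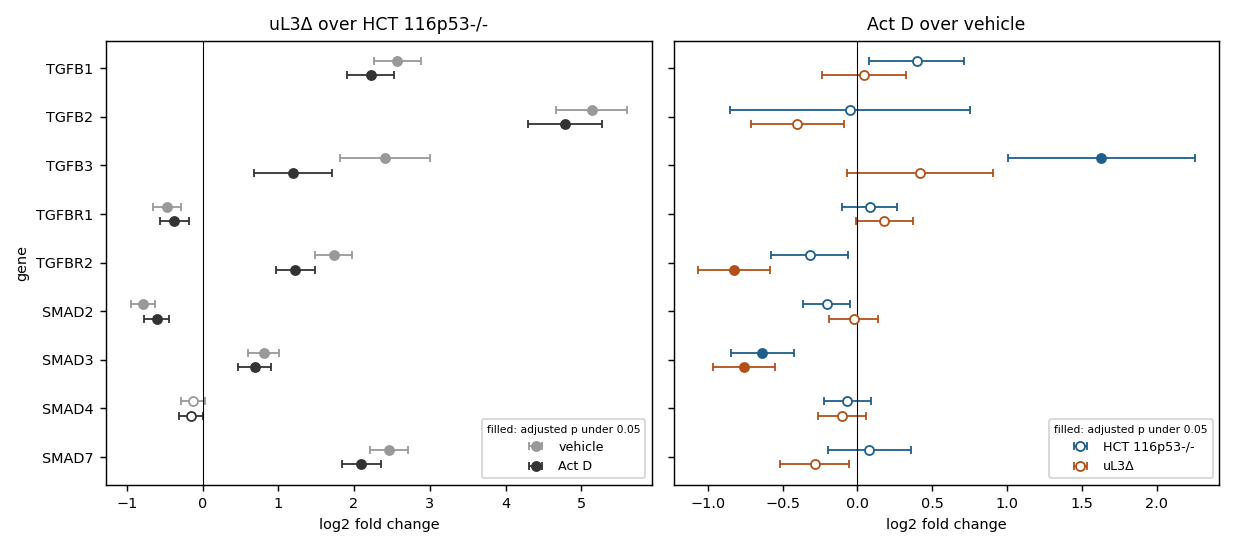
Log2 fold changes of the members with 95% intervals, between the lines (left; uL3Δ over HCT 116p53-/-, with vehicle in grey and with Act D in black) and for Act D over vehicle (right; HCT 116p53-/- in blue, uL3Δ in orange). Filled points have an adjusted p under 0.05: in the left panel these are all members but SMAD4, in the right panel TGFB3 and SMAD3 in HCT 116p53-/- cells and TGFBR2 and SMAD3 in the libraries labelled uL3Δ.

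The next comparison asks how HCT 116p53-/- cells responded to Act D. Of the 9 members, 2 passed, TGFB3 upwards and SMAD3 downwards, against 18.7% of all genes (7.59% higher and 11.1% lower), and 3 members did not overlap between treatments (38.2% of all genes). TGFB3 rose from 0.454, 0.758 and 0.423 CPM with vehicle to 1.56, 1.83 and 1.69 CPM with Act D. All Act D libraries lay above all vehicle libraries, and the log2 fold change was 1.63 (with SE 0.32 and adjusted p = 0.0015 by edgeR's quasi-likelihood test), a 3.1-fold rise at a low level.
As a share of its level in the line labelled uL3Δ, TGFB3 in HCT 116p53-/- cells stood at 18.9% with vehicle and 43.6% with Act D. For comparison, 15 genes were taken that had at least 100 CPM in the vehicle and in the Act D libraries labelled uL3Δ. With vehicle, their level in HCT 116p53-/- cells was under 1% of that in the other line. Their median share was 0.413% with vehicle, which the choice held under 1%, and 0.984% with Act D, which it did not. The 2 medians therefore do not measure a rise. TGFB2 stood at 2.79% and 3.69%. The comparison was added after the data were seen.
SMAD3 fell from 63.8, 66.1 and 75.4 CPM to 43.7, 40.8 and 47.9 CPM, with no overlap. The log2 fold change was -0.64 (with SE 0.11 and adjusted p = 0.00045 by edgeR's quasi-likelihood test). Its partner SMAD2 went from 125, 113 and 112 CPM to 98.9, 103 and 101 CPM.
The SMAD2 libraries did not overlap either, but the log2 fold change of -0.21 (adjusted p = 0.087 by edgeR's quasi-likelihood test) did not pass, and it passed with library size alone (-0.31, adjusted p = 0.0236) but turned to 0.02 (adjusted p = 0.889) after the GC and length correction. TGFB1 was at 0.40 on the log2 scale (adjusted p = 0.103, same test), and the Act D libraries, at 21.5 to 22.9 CPM, lay above the first 2 vehicle libraries and below the third. Without the third vehicle library the TGFB1 value was 0.71 (adjusted p = 0.00094, same test), and DESeq2 and the fit with no filter also called TGFB1 (adjusted p = 0.0486 and 0.0168).
TGFBR2 was at -0.32 (adjusted p = 0.105 by edgeR's quasi-likelihood test), or -0.43 (adjusted p = 0.0437) without the second vehicle library. TGFB2, TGFBR1, SMAD4 and SMAD7 had log2 fold changes between -0.07 and 0.08, and their libraries overlapped.

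In the libraries labelled uL3Δ, Act D likewise changed 2 of the 9 members, both downwards, against 11.9% of all genes (3.51% higher and 8.40% lower), and 4 members did not overlap (27.6% of all genes). TGFBR2 fell from 80.6, 59.5 and 65.0 CPM to 38.8, 39.3 and 37.6 CPM. The Act D libraries were tightly grouped below all vehicle libraries, and the log2 fold change was -0.82 (with SE 0.12 and adjusted p = 0.00022 by edgeR's quasi-likelihood test).
SMAD3 fell from 136, 105 and 120 CPM to 78.5, 66.4 and 67.6 CPM, again without overlap, by 0.76 on the log2 scale (with SE 0.11 and adjusted p = 0.00015, same test). SMAD3 was thus the member that passed in both lines, in the same direction. Even after Act D, TGFBR2 in the libraries labelled uL3Δ stayed above its vehicle level of 17.3 to 23.2 CPM in HCT 116p53-/- cells.
TGFB2 went from 14.5 to 14.9 CPM with vehicle to 10.1 to 12.6 CPM with Act D, without overlap, but its log2 fold change of -0.40 (adjusted p = 0.118 by edgeR's quasi-likelihood test) did not pass. SMAD7 was at -0.29 (adjusted p = 0.133, same test), and at -0.39 (adjusted p = 0.0418) without the first vehicle library, the lowest of its group at 41.2 CPM. TGFB3, at 0.42 (adjusted p = 0.317, same test), lay above vehicle in all Act D libraries. TGFB1, TGFBR1, SMAD2 and SMAD4 had log2 fold changes between -0.10 and 0.18, and their libraries overlapped.
The SMAD7 over SMAD3 ratio, the inhibitor against a transducer, went from 0.130 ± 0.0263 (SD, n = 3) to 0.212 ± 0.0402 with Act D in HCT 116p53-/- cells and from 0.409 ± 0.0923 to 0.559 ± 0.0137 in the libraries labelled uL3Δ. In both lines the Act D libraries lay above the vehicle libraries (p = 0.1 for each, exact permutation test, two-sided, the smallest possible). SMAD3 fell without overlap in both lines and SMAD7 passed in neither, and the ratio was chosen with these values seen. Its rise therefore adds nothing to the fall of SMAD3 and is no rise of SMAD7.

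**Figure D3:**
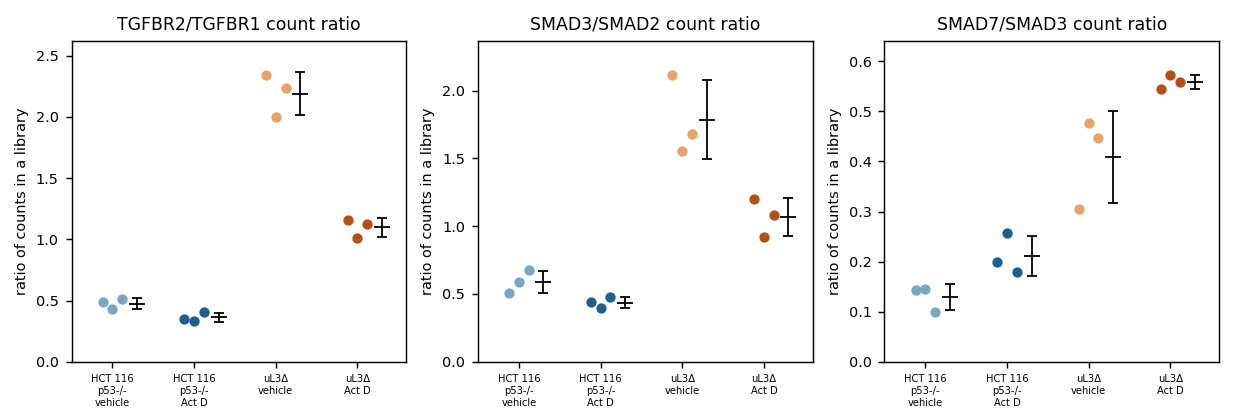
Ratios of the expected counts of TGFBR2 to TGFBR1, SMAD3 to SMAD2 and SMAD7 to SMAD3 within each library (linear axes from 0), as points by group with the mean and SD of 3 libraries beside them. The first 2 ratios are higher in uL3Δ and lower with Act D in both lines, down to 1.10 and 1.07 in uL3Δ, and the third is higher in uL3Δ and higher with Act D.

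Whether the lines responded differently to Act D was tested as the interaction. None of the 9 members passed an adjusted p of 0.05 with edgeR's quasi-likelihood test, against 6.53% of all genes. An unadjusted p under 0.05 (21.2% of all genes) was reached by 2 members, TGFB3 (difference of log2 fold changes -1.21, SE 0.40, adjusted p = 0.084, same test) and TGFBR2 (-0.50, SE 0.18, adjusted p = 0.103). DESeq2 called 0 and gave no adjusted p for TGFB3. TGFBR2 passed with no filter on low counts and after the GC and length correction (adjusted p = 0.0432 and 0.0308, edgeR's quasi-likelihood test), and TGFB1 passed without the third vehicle library of HCT 116p53-/- (-0.67, adjusted p = 0.0201). For SMAD3 the difference was -0.12 (95% interval -0.42 to 0.18).

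Of 75 other pathway genes in 6 lists by role, 68 were tested. These lists and the target lists below were likewise chosen with earlier results of these data known. In uL3Δ libraries with vehicle 38 of them were higher and 23 lower (edgeR's quasi-likelihood test), with a median log2 fold change of 0.48 beside -0.02 over all genes, of which 35.1% were higher and 36.2% lower.
Genes of latency and activation, which hold the ligand in the matrix and release it, were mostly higher, with 7 higher and 2 lower of 10. LTBP1, which tethers latent TGF-beta, was at 9.75 ± 1.27 and 52.8 ± 3.65 CPM (SD, n = 3), ITGAV, the alpha chain of the activating integrins, at 76.5 ± 6.66 and 239 ± 14.2, and FURIN, which cleaves the ligand precursor, at 42.7 ± 3.08 and 134 ± 8.7 CPM.
Of the other ligands and antagonists, 5 were higher and 4 lower of 10 tested. BMP6, named after its values were seen, had 1.94 ± 0.847 CPM in the first line and 0 in all vehicle libraries labelled uL3Δ, so that no fold is given. BMP4 fell from 206 ± 32.4 to 3.65 ± 0.71 CPM. BMP2, in contrast, was at 0.0619 ± 0.0604 CPM, under the level of 3 counts, in HCT 116p53-/- cells and at 16.9 ± 2.42 CPM in the other line, and FST, the activin-binding follistatin, was at 0.237 ± 0.0762 and 48.6 ± 7.06 CPM.
Among the other receptors, 6 were higher and 3 lower of 11. The co-receptor TGFBR3, which presents ligand to TGFBR2, was higher by 1.72 on the log2 scale (7.44 ± 0.798 and 24.4 ± 1.89 CPM), and the BMP receptors BMPR1B and BMPR2 by 5.05 and 1.35. Of the other SMADs, 3 were higher and 1 lower of 4. The second inhibitory SMAD, SMAD6, was higher like SMAD7 (1.63 ± 0.131 and 15.9 ± 1.78 CPM), while SMAD1, a transducer of BMP signals, fell by 0.99 on the log2 scale.
Of 22 regulators of the signal, 12 were higher and 8 lower. Higher were PMEPA1, a pathway target that sequesters SMAD2 and SMAD3 (1.2 ± 0.362 and 77.3 ± 5.23 CPM), the SMAD co-repressor SKIL (8.47 ± 1.52 and 108 ± 2.61 CPM) and PPP1R15A, a phosphatase subunit recruited by SMAD7 (35.0 ± 6.46 and 231 ± 16.0 CPM). Of 11 nuclear partners tested, 5 were higher and 5 lower. RUNX2 was higher (0.644 ± 0.119 and 8.43 ± 2.40 CPM) and its relative RUNX3 lower (20.1 ± 1.11 and 0.352 ± 0.131 CPM).

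Textbook target genes, which also answer to other pathways, were counted separately. Of 28 usually induced by TGF-beta, 23 were higher with vehicle in the libraries labelled uL3Δ and 3 lower, against 35.1% and 36.2% of all genes, with a median log2 fold change of 2.46. TGFBI, a secreted matrix protein, was at 2.78 ± 0.65 CPM (SD, n = 3) in the first line and at 988 ± 20.2 CPM in the other line, and TPM1, a tropomyosin, at 15.3 ± 0.781 and 188 ± 13.9 CPM. The 3 that fell were CDKN1A (162 ± 10.0 and 74.3 ± 2.15 CPM), which encodes the cell-cycle inhibitor p21, and ACTA2 and COL1A1, a smooth-muscle actin and a collagen chain, at 4.46 and 7.50 CPM against 0.776 and 4.14 CPM.
Of 5 genes usually repressed, MYC fell from 385 ± 9.68 to 15.3 ± 1.25 CPM and CDH1, which encodes E-cadherin and is also among the epithelial markers above, from 66.8 to 0.445 CPM. ID3, an inhibitor of differentiation factors, was higher by 0.37 on the log2 scale (adjusted p = 0.0208 by edgeR's quasi-likelihood test), but not past the threshold with library size alone, after the GC and length correction or without the first vehicle library of HCT 116p53-/- or the second labelled uL3Δ (0.14, 0.12, 0.28 and 0.36). ID1 and ID2 did not pass (0.19 and -0.16).
With Act D in both lines, 36 pathway genes were higher and 21 lower, as were 23 and 6 of the 33 targets, against 35.1% and 35.3% of all genes.

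Act D raised 5 and lowered 14 of the 68 pathway genes tested in HCT 116p53-/- cells, and raised 2 and lowered 15 in the libraries labelled uL3Δ. Of all genes, 7.59% rose and 11.1% fell in the first line and 3.51% and 8.40% in the second, and the median log2 fold changes of the list were -0.06 and -0.13 beside 0.02 and 0.03 over all genes. In the first line the number called fell from 19 to 12 without the first Act D library, and over all genes from 2939 to 1833. BMPR1A and the ubiquitin ligase TRIM33, which acts on SMAD4, fell in both, by 0.88 and 0.46 on the log2 scale in HCT 116p53-/- cells and by 0.59 and 0.73 in the libraries labelled uL3Δ (adjusted p between 1.9e-05 and 0.0019 by edgeR's quasi-likelihood test). PMEPA1 and SMURF1, a ubiquitin ligase that works with SMAD7, fell in the libraries labelled uL3Δ by 1.19 and 1.01.
Of the 33 targets, Act D raised 11 and lowered 2 in HCT 116p53-/- cells, and raised 4 and lowered 5 in the libraries labelled uL3Δ, to be read against the same shares of all genes. Their median log2 fold changes were 0.32 and -0.06. CDKN1A rose from 162 ± 10.0 to 554 ± 28.1 CPM (SD, n = 3) in the first line and was at 74.3 ± 2.15 and 86.4 ± 4.01 CPM in the second. The cell-cycle inhibitor CDKN2B rose in both lines, from 3.16 ± 0.501 to 8.21 ± 1.35 CPM and from 5.75 ± 0.35 to 14.2 ± 0.449 CPM.
TGFBI rose from 2.78 ± 0.65 to 10.3 ± 0.888 CPM in HCT 116p53-/- cells, a level that is 0.984% of its 1044 CPM in the Act D libraries labelled uL3Δ. TGFBI is 1 of the 15 genes described above and is their median gene with Act D, so the 2 shares are 1 value. The part of such a share in the rise was not tested.

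**Figure D4:**
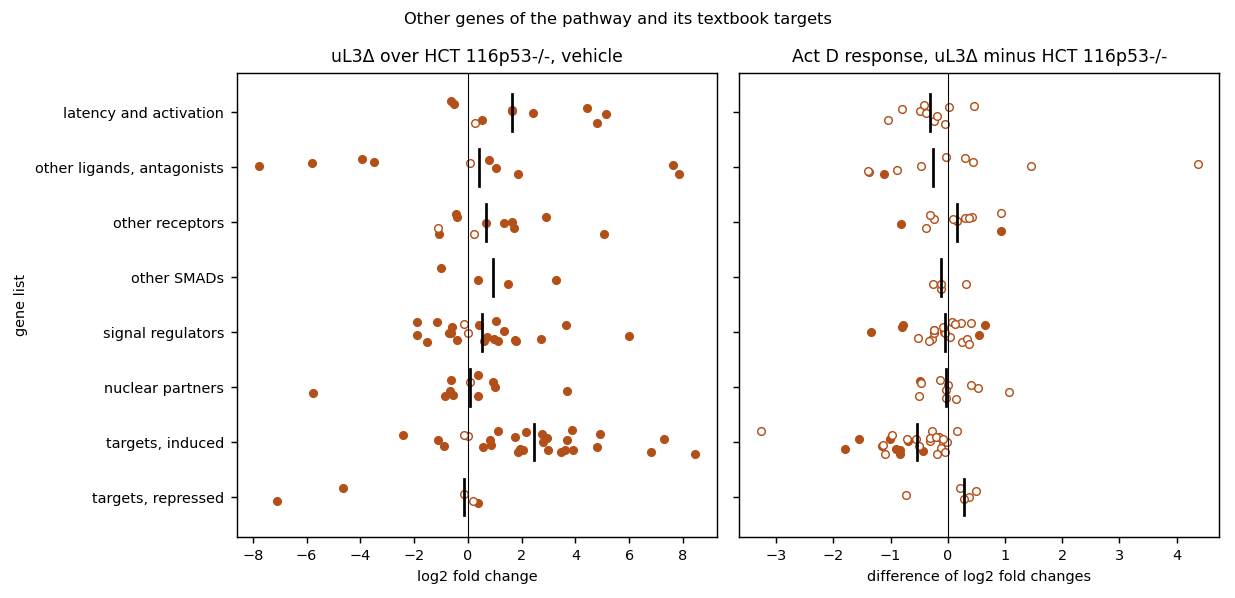
Log2 fold changes of the other pathway genes and textbook targets by list (rows), between the lines with vehicle (left) and as the difference of the Act D responses (right). Each point is a gene, filled where its adjusted p is under 0.05, and the black bar is the list's median, which on the left is 2.46 for induced targets and 1.65 for genes of latency and activation, and on the right is -0.53 and -0.31. The lowest point of the ligands on the left and their highest on the right are BMP6, fitted against a group at 0, and have no measured fold.

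In the second library of vehicle-treated HCT 116p53-/- cells the counts were deposited per transcript, so that the forms of the members can be seen in a single library. TGFBR2-201 held 81.6% of the TGFBR2 transcript level and TGFBR2-202 18.4%. TGFBR1-202 held 85.7% for TGFBR1 and SMAD3-201 55.2% for SMAD3. For SMAD2, SMAD2-205 held 41.6% and the short SMAD2-207 41.3%, with 476 and 174 expected counts. For SMAD4, SMAD4-213, annotated as nonsense-mediated decay, held 27.0% and SMAD4-214, with no coding sequence annotated, 25.55%. The coding SMAD4-201 held 14.7% but 693 expected counts, against 169 and 43.2. For SMAD7, SMAD7-202 with a retained intron held 38.4%, and the coding SMAD7-201 and SMAD7-208 held 29.75% and 29.1%. For TGFB1, TGFB1-201 held 61.4% and a short transcript with a retained intron, TGFB1-202, 38.6%, with 196 and 10.7 expected counts. For TGFB2, 4.6 of 6.32 expected counts were assigned to TGFB2-203, for which no coding sequence is annotated.

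The genes most like each member across the 12 libraries, by Pearson correlation of log2 CPM among genes with a mean of at least 5 CPM, were NYNRIN for TGFB1 (r = 0.999), IL7R for TGFB2 (0.997), CITED2 for TGFB3 (0.985), AP4B1 for TGFBR1 (0.969), ASXL1 for TGFBR2 (0.991), SYTL2 for SMAD2 (0.993), SH3D19 for SMAD3 (0.985), TRIM13 for SMAD4 (0.940) and PTTG1IP for SMAD7 (0.995). The libraries share their line and treatment, so that these values describe likeness of pattern over 2 lines and are no test.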

How the data were processed

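RNA of 12 libraries was prepared with a TruSeq kit and sequenced from both ends. The authors trimmed the reads, discarded those from rRNA and further contaminants, and quantified what was left against the Ensembl annotation of hg38 with RSEM 1.2.25. They deposited expected counts, which are not normalized, and TPM. RSEM's posterior standard deviation, a deposited score, was read as the uncertainty of a count, and the deposited lengths as bases. For HCT 116p53-/- with vehicle, replicate 2, the deposited values are per transcript, with the percent of the gene's level that each takes. There expected counts and TPM were summed per gene. FPKM was not used. GENCODE v44 names matched 60261 of 60617 identifiers.

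Expected counts were rounded, filtered with filterByExpr (15692 genes tested) and scaled by TMM (factors 0.847 to 1.15). A single model held the 12 libraries, with 1 mean per group (edgeR 4.0.16, quasi-likelihood test, Benjamini-Hochberg adjustment over all genes tested, threshold 0.05). Adjusted p-values are from edgeR unless DESeq2 1.42.0 is named. Groups and replicate numbers came from the titles, and the descriptions number the Act D libraries labelled uL3Δ otherwise. A level of 3 counts was 0.15 to 0.348 CPM, which limits low genes, and this covers counting error only. The fits were tested on simulated data.

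The members and lists were chosen with earlier results of these data known. Besides the members, RPL3, TGFBI and MYC, the rule named up to 3 genes with the smallest p per list and comparison between groups (adjusted p under 0.05, at least 1 CPM in a group) and the genes most correlated with each member. ACTA2, COL1A1, ID1 and genes with differing Act D responses outside that rule were chosen after their values were seen, and marker genes came from fixed lists. Some items are not reported here by name, and counts over lists include them. Alternatives were DESeq2, its size factors, library size alone, upper-quartile scaling, 2 other filters, the replicate block, only the groups compared, deposited TPM, each library left out and, added after the data were seen, a GC and length correction. R 4.3.3 and Python 3.11 were used.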

Additional observations from a re-analysis of the deposited data

Results flagged for a closer look

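A different response to Act D in the lines was called for 9 of 68 pathway genes (13.2%) and 9 of 33 targets (27.3%) tested. Of the 9 members 0 passed, against 6.53% of all genes. Of the pathway genes and targets called, 16 are given here, with edgeR's quasi-likelihood test (difference of log2 fold changes, libraries labelled uL3Δ minus HCT 116p53-/-), 13 lower and 3 higher. They are listed because the difference itself passed the test. TGIF1, CCN1, ANGPTL4 and SPHK1 were chosen after their values were seen.

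Among pathway genes, the ligand GDF15 differed by -1.11, the receptors BMPR2 by -0.82 and TGFBR3 by 0.93, the regulators PMEPA1 by -1.35, PPP1R15A by -0.81, SMURF1 by -0.79, TGIF1 by 0.65 and ZFYVE9 by 0.55, and the coactivator EP300 by -0.48. TGFBR3 fell by 0.45 with Act D in HCT 116p53-/- cells and was higher by 0.47 in the libraries labelled uL3Δ. The fall was lost in 7 alternatives and the rise with library size alone, while the difference was kept in all 20.

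Among targets, TGFBI differed by -1.79, CDKN1A by -1.56, CCN1 by -1.14, PDGFB by -1.004, SPHK1 by -0.91, ANGPTL4 by -0.83 and VEGFA by -0.69. CCN1 rose by 1.10 with Act D in HCT 116p53-/- cells and was at -0.04 in the libraries labelled uL3Δ. TGFBI rose in HCT 116p53-/- cells to only 0.984% of its level in the Act D libraries labelled uL3Δ. It is the median gene, at that share, of the 15 genes described in the Results. The part of such a share in the TGFBI difference was not tested.

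GDF15, TGFBR3, BMPR2, SMURF1, PPP1R15A, TGFBI, CCN1, CDKN1A and VEGFA kept the call in each of the 20 alternatives run, whereas the other 7 genes lost it in at least 1. None of these alternatives took out a share of the other line's level, such as the share given for TGFBI above.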

How the results depend on the processing

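Of 719 values of members under alternatives, 689 kept direction and side of the threshold, 12 newly passed and 18 turned their sign. Of 1650 values of other named genes, 115 no longer passed, 1 newly did and 14 turned their sign. The turned values had an adjusted p above 0.05 both before and after. The Act D calls in HCT 116p53-/- cells that some alternative lost were those of ACVR2B, CREBBP, FURIN, ID2, MYC, TFDP1, TGFBR3 and THBS1.

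The interaction gave 1 member in place of 0 with no filter, after the GC and length correction (chosen after the data were seen) and without the third HCT 116p53-/- vehicle library (0 to 1 over single libraries left out). For the 9 pathway genes of the interaction the correction gave 20 and single libraries left out 5 to 10. The 9 targets of the interaction became 5 with library size alone and 5 to 9 with single libraries left out. The 19 pathway genes of Act D in HCT 116p53-/- cells became 12 to 16. The lowest of these counts came without HCT 116p53-/- vehicle replicate 2, without its Act D replicates 1 or 3, or without Act D replicates 1 or 2 labelled uL3Δ. Over all genes, the interaction calls went from 1025 to 1791 with the correction and to 757 with library size alone. With single libraries left out they were 614 to 979. The calls of Act D in HCT 116p53-/- cells over all genes went from 2939 to between 1833 and 2312 with single libraries left out. The cause was not tested.

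In TPM the log2 ratio of the vehicle means was 1.78 for TGFB1, 4.36 for TGFB2, 1.86 for TGFB3, -1.17 for TGFBR1, 1.25 for TGFBR2, -0.99 for SMAD2, 0.55 for SMAD3, -0.84 for SMAD4 and 1.56 for SMAD7. The positive ratios were thus smaller than with CPM. The falls of TGFBR1, SMAD2 and SMAD4 were larger than with CPM, where they were -0.47, -0.79 and -0.12. 

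With the replicate number as a block, 8, 8, 2, 2 and 0 members were called, as without it, and 7 pathway genes and 7 targets of the interaction. Deviations of same-numbered libraries correlated between -0.104 and 0.101 over 18 pairs, so that the numbers were not taken as pairing.

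Turned signs were, with library size alone, -0.017 for TGFBR1 and -0.018 for SMAD7 under Act D in HCT 116p53-/- cells, -0.061 for TGFB1, -0.0023 for MYC and -0.026 for TGFBI under Act D in uL3Δ, and -0.11 and -0.13 for RPL3 between the lines with vehicle and Act D. After the GC and length correction they were 0.074 for SMAD4 and -0.011 for RPL3 between the lines with vehicle, 0.040 for TGFB2, 0.021 for SMAD2 and 0.091 for SMAD4 under Act D in HCT 116p53-/- cells, 0.043 for SMAD2 in uL3Δ, and -0.012 for TGFBR1 and 0.039 for RPL3 in the interaction. Upper-quartile scaling gave 0.040 for SMAD2 and 0.041 for RPL3 under Act D in uL3Δ, and for RPL3 0.021 in HCT 116p53-/- cells and 0.020 in the interaction. With single libraries left out, signs turned within ranges of -0.46 to 0.27 for TGFB2, -0.027 to 0.15 for SMAD7 and -0.026 to 0.0095 for RPL3 (Act D, HCT 116p53-/-), -0.044 to 0.13 for TGFB1, -0.10 to 0.012 for SMAD2 and -0.085 to 0.031 for RPL3 (Act D, uL3Δ), and -0.67 to 0.038 for TGFB2, -0.0093 to 0.17 for TGFBR1, -0.13 to 0.033 for SMAD4 and -0.083 to 0.045 for RPL3 (interaction). The cause was not tested.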
